A study of Homo sapiens with 12 samples.

Results

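LN229, an established human glioblastoma cell line, was transfected with siRNA and kept at low oxygen, and its transcripts were measured on Affymetrix arrays. The comparison described here sets cells in hypoxia (1% oxygen) that received HIF-1A siRNA, directed at the HIF1A transcript, against cells in the same hypoxia that received non-targeting siRNA, called control siRNA below. It takes 6 of the study's 12 arrays, 3 per group, chosen by their labels. All cells grew in DMEM/F-12 with 10% serum, were transfected 24 h after seeding, were moved to the set oxygen level 48 h after transfection and were harvested 16 h later. The other 6 arrays, used for the shared estimate of the spread and as levels for orientation, came from hypoxic cells with HIF-2A siRNA (directed at EPAS1) and from normoxic cells (20% oxygen) with non-targeting siRNA. The study asked which genes answer to HIF-1A and which to HIF-2A in glioblastoma. By its design text it set each group against the normoxic cells, whereas the direct contrast of both siRNAs within hypoxia is given here. How many siRNA sequences made up each reagent is not given in the sources used here, so loss of HIF1A and any other effect of the reagent cannot be told apart. HIF proteins were not measured.

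HIF-1A is the oxygen-regulated subunit of a transcription factor that pairs with ARNT. With oxygen present, prolyl hydroxylases of the EGLN family mark it for the VHL ubiquitin ligase and FIH (HIF1AN) blocks its coactivator contact, so that the protein accumulates chiefly when oxygen is short. The dimer binds hypoxia response elements, whose core reads ACGTG or GCGTG, near genes of glucose uptake, glycolysis, glycogen storage, mitophagy, vessel growth and collagen modification. EPAS1 encodes HIF-2A, a relative that binds the same core.

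The values are log2 expression as deposited, with base 2 inferred from their range of 1.14 to 14.3, and 14232 genes were tested. A gene was called, and is said to have fallen or risen, at an adjusted p under 0.05 by limma (Benjamini-Hochberg over all genes tested). Nothing in the labels says that the replicates were grown separately. The p-values therefore rest on the variation among these arrays, part or all of which may be technical. Before any single gene, the arrays themselves differed. The interquartile range was 3.46, 3.43 and 3.15 on HIF-1A siRNA replicates 1, 2 and 3, against 3.74, 3.54 and 3.58 with control siRNA, so replicate 3 had the narrowest range of the 12 arrays and the lowest median, 6.49. It also received the lowest weight, 0.287, when limma estimated array weights. On the deposited values 1451 genes (10.2%) were called lower and 122 (0.857%) higher. After quantile normalization, which gives all arrays a common distribution, 1124 (7.9%) were lower and 726 (5.1%) higher. Rises thus made up 7.76% of calls as deposited and 39.2% after quantile normalization, and the median change of all genes moved from -0.05 to 0.07 (log2), by 0.12. The calls shared by both scales were 1086 falls and 121 rises, and 0 genes were called in opposite directions. Without replicate 3 of the HIF-1A siRNA, 539 genes were called lower and 68 higher, and without control replicate 1 the counts were 366 and 24. Without HIF-1A siRNA replicate 2 they rose to 2450 and 198, and without control replicate 3 they were 741 and 54.

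**Figure D1:**
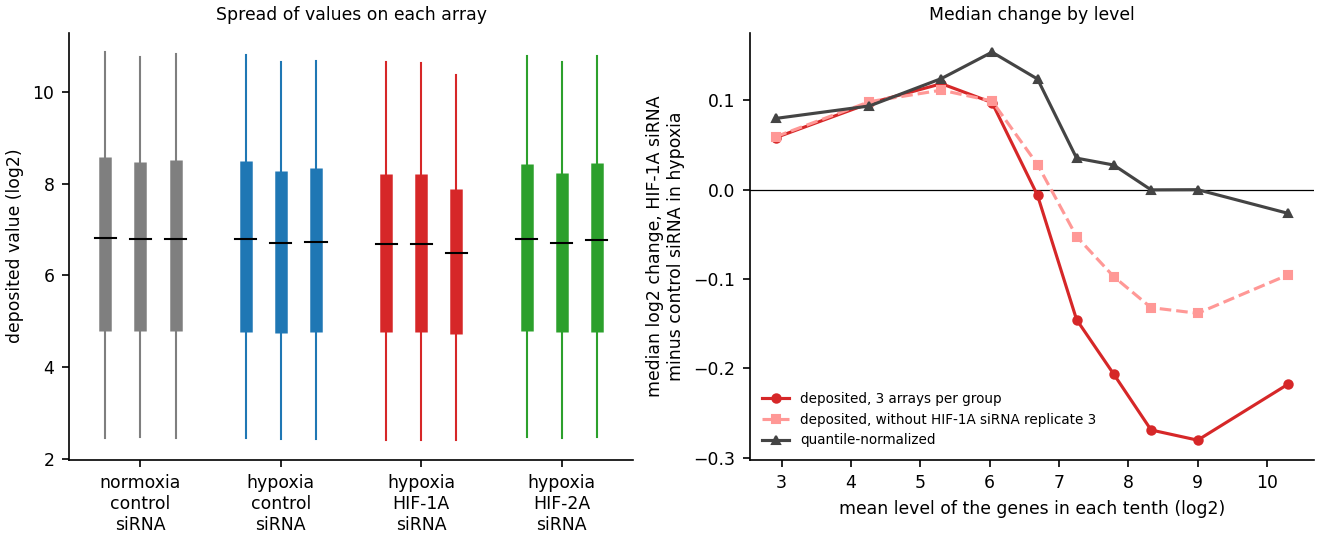
Left, the 5th to 95th percentile (thin line), quartiles (thick bar) and median (black tick) of the deposited log2 values on each of the 12 arrays, replicates 1 to 3 from left to right. Right, the median log2 change of the genes in each of 10 equal groups by mean level: it runs from 0.12 in the group around a level of 5.31 to -0.28 in the group around 9.002 on the deposited values, stays between -0.03 and 0.15 after quantile normalization, and lies in between without HIF-1A siRNA replicate 3 in the groups from a level of 6.04 upward.

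The deposited change depended on how strongly a gene was expressed. With genes split into 10 equal groups by level, the median change was 0.06 in the lowest group and -0.28 in the group next to the highest, where 258 genes were called lower and 9 higher. After quantile normalization that group had a median of 0.00, with 161 called lower and 103 higher. For this reason the counts and medians of the lists below are given on both scales, beside medians of -0.05 and 0.07 for all genes. As deposited 10.2% of all genes were lower and 0.857% higher, and after quantile normalization 7.9% and 5.1%. Falls were rarest at low levels, with 6 of 1424 genes in the lowest group, so 10.2% lies below the share among well-expressed genes. The lists were chosen with earlier results of these data known, so their shares are descriptions and were not tested.

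The targeted transcript came first. HIF1A measured 11.72, 11.40 and 11.26 with control siRNA and 8.20, 9.06 and 7.74 with HIF-1A siRNA, so that the groups were far apart and replicate 2 kept the most transcript. The fall was 8.76-fold (-3.13 on the log2 scale, SE 0.27, with 3 arrays in each group, adjusted p = 1.60e-04) and left 11.4% of the control level. It was -2.90 after quantile normalization and -2.83 without replicate 3.

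Of 16 listed HIF subunits and regulators, 13 were measured, of which 4 fell (30.8%, against 10.2% of all genes as deposited) and 0 rose on either scale. EPAS1, the HIF-2A subunit, had the largest fall of the list after HIF1A itself. It read 9.74, 9.57 and 9.83 with control siRNA, 8.60, 8.08 and 8.02 with HIF-1A siRNA, and 8.52 on average in normoxia, so the 2 groups of siRNA arrays in hypoxia did not overlap. The log2 change was -1.48 (SE 0.15, adjusted p = 3.13e-04), which left 35.8%, and it was -1.22 after quantile normalization. EPAS1 was still 1.11 above its level with HIF-2A siRNA (log2, adjusted p = 0.00171). ARNT2, a dimerization partner of the ARNT family, read 8.74, 8.50 and 8.45 with control siRNA and 7.78, 7.71 and 7.48 with HIF-1A siRNA, below all 3 normoxic arrays (mean 8.04). It fell by 0.91 on the log2 scale (SE 0.12, adjusted p = 0.00139). EGLN3, a prolyl hydroxylase that is itself a HIF target, went from 6.76, 6.74 and 6.65 to 6.33, 6.32 and 6.23 (-0.42, adjusted p = 0.0285). That call was lost without any single control array or without HIF-1A siRNA replicate 3 (highest adjusted p 0.116), although the groups did not overlap. ARNT, the constitutive partner, was not called (-0.42, 95% interval -0.79 to -0.04, adjusted p = 0.126), nor was VHL (-0.28, adjusted p = 0.0863). HIF1AN read 7.91, 7.95 and 6.89 with HIF-1A siRNA against 8.63, 8.12 and 8.28 with control siRNA, where replicate 3 alone stood a full unit below the others (adjusted p = 0.0750). The 6 other members, CITED2, CREBBP, SIAH1, SIAH2, EGLN2 and HIF3A, ran from -0.51 to 0.23 and were not called. SIAH2, a ubiquitin ligase, changed sign with the scaling, from -0.06 to 0.22.

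**Figure D2:**
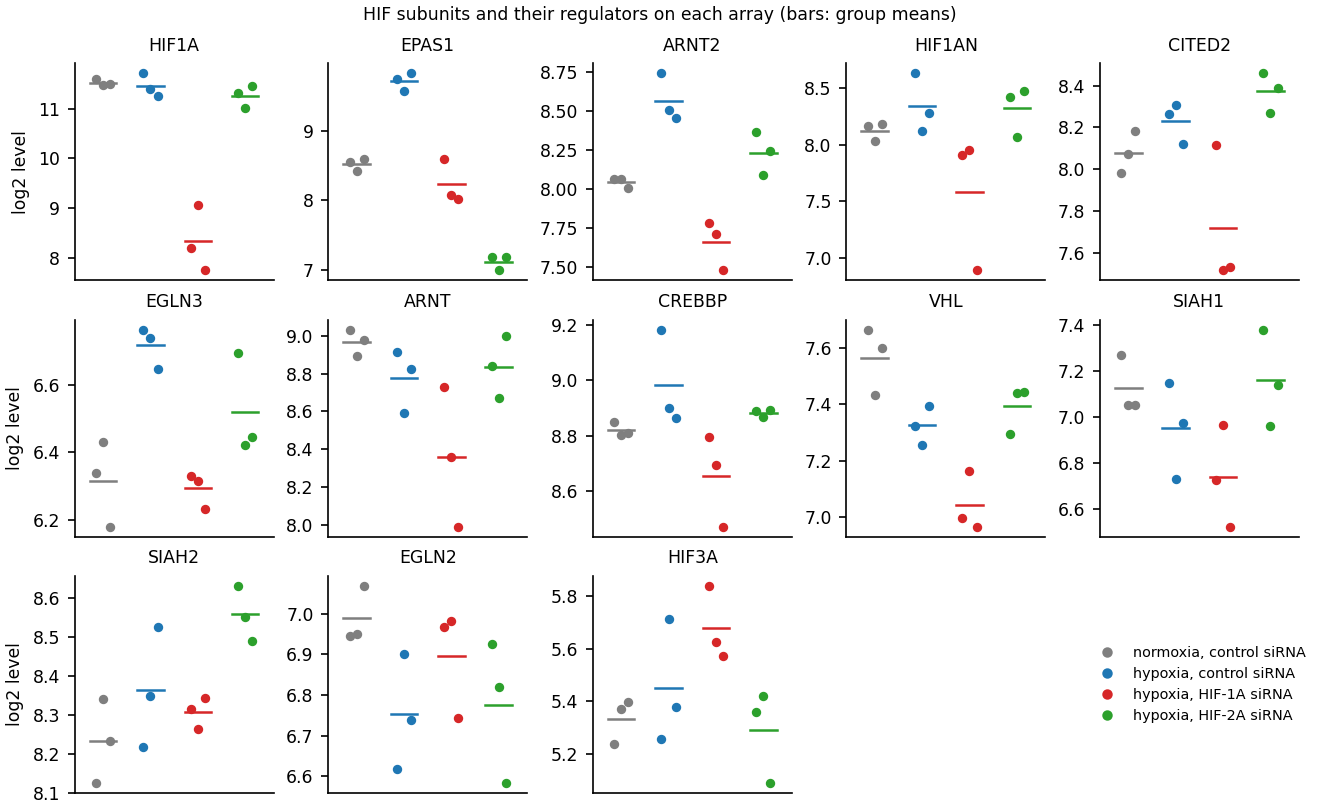
Deposited log2 levels of the 13 measured HIF subunits and regulators on each array, ordered by their change; points are arrays and bars are group means. HIF1A is low only in the HIF-1A siRNA group, and EPAS1 falls from a mean of 9.71 with control siRNA to 8.23 with HIF-1A siRNA and 7.12 with HIF-2A siRNA.

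The 12 largest falls, taken among genes called lower on both scales whose arrays did not overlap, were HIF1A and 11 others. Each of the 12 was also lower with HIF-1A siRNA than with HIF-2A siRNA, a contrast that shares the HIF-1A siRNA arrays. In every one of the 12, replicate 3 gave the lowest HIF-1A siRNA value. BEND5, which encodes a BEN-domain protein of the kind that binds DNA, led them. It measured 10.10, 9.62 and 9.74 with control siRNA and 6.64, 6.40 and 6.35 with HIF-1A siRNA, well apart and still above all 3 normoxic arrays (mean 5.90). The fall was 10.2-fold (-3.36, SE 0.21, adjusted p = 5.66e-05). NRN1, which encodes neuritin, a membrane-anchored protein of neurite growth, went from 9.24, 9.36 and 9.53 to 7.06, 6.85 and 6.14 (-2.69, SE 0.21). TMEM45A, a transmembrane protein gene, went from 10.92, 10.56 and 10.68 to 8.31, 8.48 and 7.44 (-2.64, SE 0.25). In both, HIF-1A siRNA replicates 1 and 2 stayed above all normoxic arrays and replicate 3 lay below them all. The normoxic means were 6.22 and 7.79. ARLN had a wide spread, 11.44, 10.20 and 10.54 against 7.85, 8.99 and 6.48 (-2.95, SE 0.58, adjusted p = 0.0116), and lost its call without control replicate 1 (adjusted p = 0.0624). Its size depended on the setting: it was -2.01 with the mean of all its probe sets, -2.31 without HIF-1A siRNA replicate 3 and -3.56 without replicate 2. The other 11 kept their calls in all 6 fits that left out an array.

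Secreted and lipid-related factors followed. HILPDA, an inhibitor of lipid droplet breakdown, measured 9.81, 9.47 and 9.68 with control siRNA and 7.70, 7.57 and 7.20 with HIF-1A siRNA (-2.17, SE 0.16, adjusted p = 7.91e-05). STC1, which encodes the glycoprotein hormone stanniocalcin 1, went from 11.32, 11.04 and 11.05 to 9.04, 9.24 and 8.68 (-2.15, SE 0.14, adjusted p = 5.66e-05). ANGPTL4, an inhibitor of lipoprotein lipase, went from 9.35, 9.32 and 9.12 to 7.36, 7.28 and 6.86 (-2.10, SE 0.16, adjusted p = 7.91e-05). All 3 fell more than 4-fold, and all 3 remained above every normoxic array, where their means were 7.13, 7.85 and 5.94. FAM162A, a mitochondrial protein gene linked to hypoxic cell death, fell 4.39-fold to 8.39, 8.02 and 7.45 from 10.36, 10.03 and 9.88. PPP1R3C, which brings protein phosphatase 1 to glycogen, fell 3.91-fold to 7.92, 7.97 and 7.29 from 9.81, 9.60 and 9.68. In both, HIF-1A siRNA replicates 1 and 2 stayed above all normoxic arrays, whose means were 7.47 and 7.57. Replicate 3 lay within the normoxic range for FAM162A and below it for PPP1R3C. The long non-coding RNA LINC01587 fell 3.83-fold, from 7.86, 7.73 and 7.27 to 5.81, 5.63 and 5.61. RGS5, a regulator of G-protein signalling, fell 3.79-fold, from 6.84, 6.73 and 6.91 to 4.94, 5.13 and 4.64. RGS5 and HIF1A were the 2 of these 12 whose HIF-1A siRNA arrays all lay below all normoxic arrays.

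**Figure D3:**
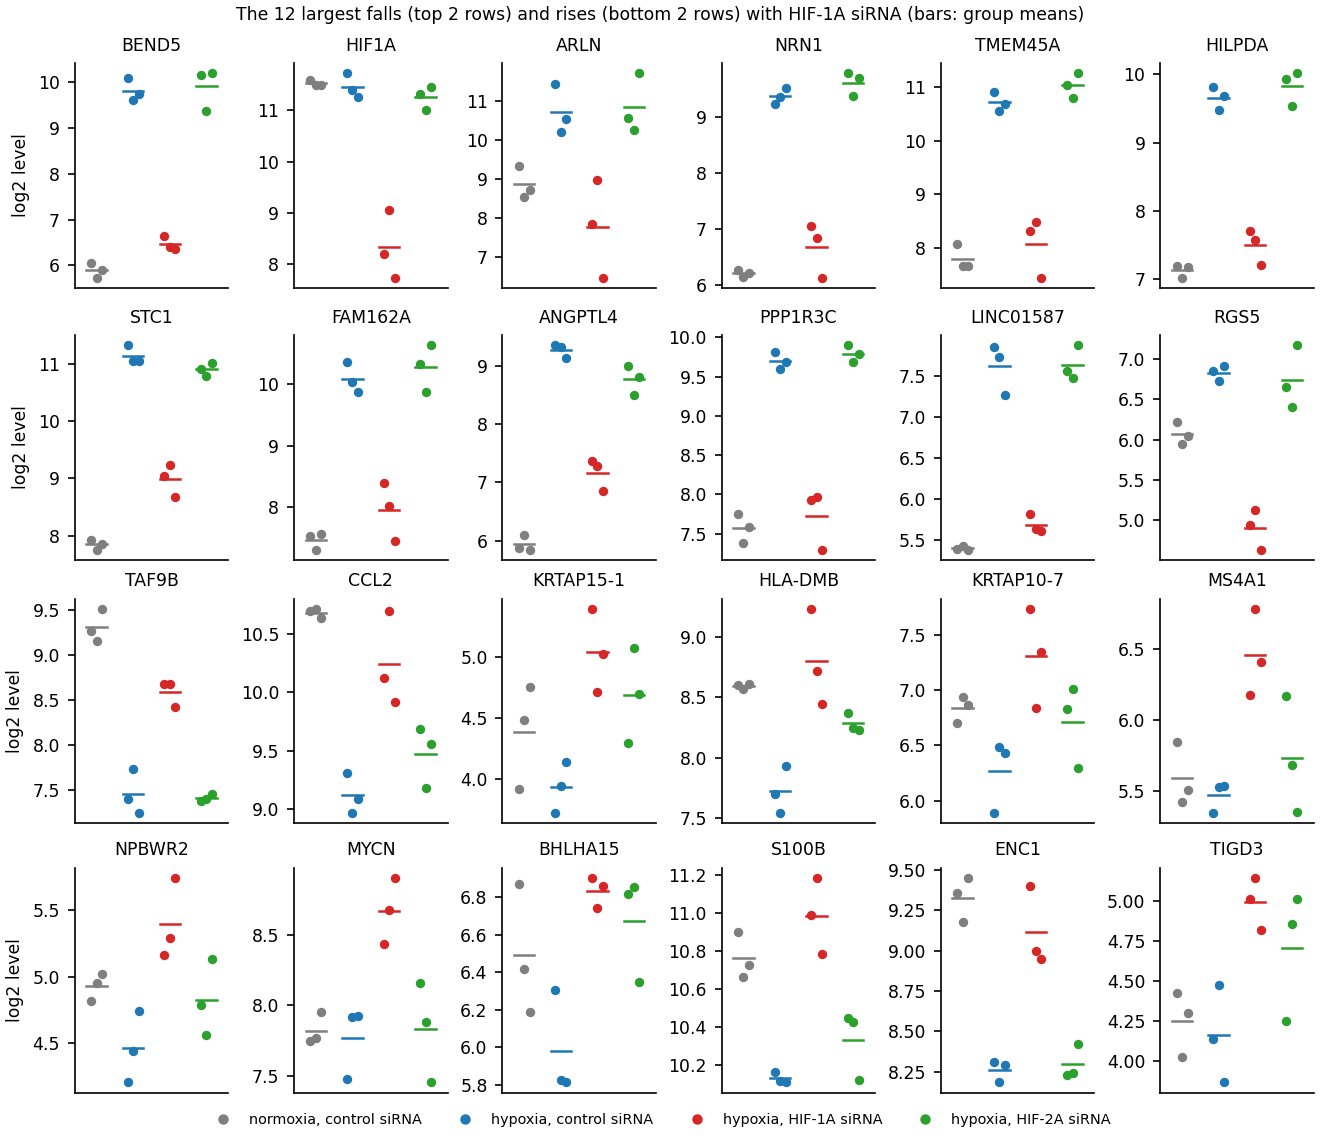
Deposited log2 levels on each array for the 12 largest falls and the 12 largest rises with HIF-1A siRNA; points are arrays, bars are group means, and each panel has its own axis that does not start at 0. In the falls every HIF-2A siRNA array lies above every HIF-1A siRNA array, whereas among the rises KRTAP15-1, KRTAP10-7, BHLHA15 and TIGD3 have HIF-2A siRNA arrays that reach into the HIF-1A siRNA range.

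Glucose uptake and glycolysis, the pathway most often tied to HIF-1A, fell at 14 of 22 measured members (63.6%, against 10.2% of all genes), and 0 rose. The median change of the list was -0.71 as deposited and -0.58 after quantile normalization, beside -0.05 and 0.07 for all genes. After quantile normalization 14 fell as well, and 12 members were called lower on both scales. Without HIF-1A siRNA replicate 3, 11 fell. At an unadjusted p under 0.05 by limma, 17 members were lower and 0 higher, and each list below with 0 rises held at most 2 members on the higher side. The aldolase ALDOC, which splits fructose bisphosphate, measured 10.63, 10.65 and 10.53 with control siRNA and 8.87, 9.06 and 8.42 with HIF-1A siRNA (-1.82, SE 0.15, adjusted p = 1.37e-04). The enolase ENO2 went from 11.26, 11.34 and 11.08 to 9.54, 9.63 and 9.19 (-1.78, SE 0.12, adjusted p = 6.27e-05). Neither had overlapping groups, and both stayed above their normoxic means of 7.16 and 8.46. Kinases that hold pyruvate dehydrogenase inactive fell together. PDK3 went from 8.07, 7.44 and 7.48 to 6.19, 6.45 and 5.78 (-1.52), PDK1 fell by 1.09 and PDK4 fell by 1.08 on the log2 scale. PDK4 and PDK3 differed in their starting point: PDK4 averaged 6.89 in normoxia and 6.99 in hypoxia with control siRNA, and its HIF-1A siRNA arrays (6.22, 5.93 and 5.57) lay below both. PFKFB4, which makes the glycolytic activator fructose 2,6-bisphosphate, went from 10.06, 10.01 and 10.10 to 8.96, 8.51 and 8.43 (-1.42, SE 0.14). PFKFB3, of the same function, fell by 0.82.

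Members of the same enzyme family changed by different amounts. ALDOA, the ubiquitous aldolase, was not called (-0.23, 95% interval -0.44 to -0.03), and neither was ENO1 (-0.22, -0.42 to -0.01) or ENO3 (-0.05, -0.36 to 0.25). Their intervals did not reach those of ALDOC and ENO2, although the difference between paralogs was not tested. ENO1 was called lower after quantile normalization (-0.30, adjusted p = 0.0412). LDHA, which makes lactate, was not called (-0.06, -0.34 to 0.22). ENO1 ran from 12.99 to 13.42 and LDHA from 13.24 to 13.72 over the 6 arrays, near the highest deposited value of 14.3, and whether the top of the scale narrows their changes was not tested. Of the hexokinases, which trap glucose in the cell, HK1 fell by 1.22 (SE 0.13) and HK2 by 0.40, the latter lost without HIF-1A siRNA replicate 3 or any control array and at -0.16 after quantile normalization. Among phosphofructokinases, PFKP fell by 0.97 and PFKL by 0.75, while PFKM was at 0.01 (-0.21 to 0.23). GPI, which interconverts glucose and fructose phosphates, fell by 0.91. SLC2A1, the GLUT1 transporter, was called at -0.46 (adjusted p = 0.0416) and PGK1 at -0.68 (adjusted p = 0.0240). Both calls were lost without each control array and 2 of the HIF-1A siRNA arrays (highest adjusted p 0.138 and 0.0996).

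In glycogen metabolism 9 of 15 measured members (60%, against 10.2% of all genes as deposited) were lower and 0 higher on either scale. The median was -0.70, and -0.51 after quantile normalization. Without HIF-1A siRNA replicate 3, 6 were lower. Besides PPP1R3C, the muscle-type glycogen synthase GYS1 measured 9.88, 9.66 and 9.64 with control siRNA and 8.06, 8.04 and 7.69 with HIF-1A siRNA (-1.80, SE 0.12, adjusted p = 5.66e-05). GBE1, the branching enzyme, went from 11.37, 11.14 and 11.25 to 10.28, 10.02 and 9.75 (-1.23, SE 0.13). PPP1R3B, another glycogen-targeting subunit, went from 8.42, 8.31 and 8.14 to 7.20, 7.23 and 7.13 (-1.11, SE 0.11). Synthesis and breakdown enzymes moved in 1 direction, since the liver-type phosphorylase PYGL fell by 1.01 and the phosphoglucomutase PGM1 by 0.93. The calls of PGM2 and PHKA1 were lost without control replicate 1 or 3 or HIF-1A siRNA replicate 3 (highest adjusted p 0.118 and 0.159), and that of UGP2 without any control array or HIF-1A siRNA replicate 3 (0.172). GYS2, the liver-type synthase, averaged 2.94 in the control arrays, under the lower quartiles of all 12 arrays (4.73 to 4.79). No measure of background was used here, so changes at such levels have an uncertain size. PYGB, PYGM, PPP1R3D, GYG1 and GAA were not called.

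Promoter letters are shown for the 6 largest falls, among the 12 above and the leading members of the lists, whose single RefSeq window (GRCh38.p14) held a hypoxia response element core, because these cores are the sites the factor is known to bind. The 250 bases before the gene start are printed 5′ to 3′ along the gene, with ACGTG or GCGTG, on either strand (CACGT or CACGC on the printed strand), in capitals. FAM162A (chr3:122383932-122384181, plus strand) has cores beginning at -92, -84, -75 and -36 from the gene start, ANGPTL4 (chr19:8363905-8364154, plus) at -234, and PPP1R3C (chr10:91633072-91633321, minus) at -159, -138 and -45. ALDOC (chr17:28576896-28577145, minus) has them at -240, -108, -45 and -28, GYS1 (chr19:48993310-48993559, minus) at -108 and -85, and ENO2 (chr12:6914330-6914579, plus) at -118. The last run of PPP1R3C and the first of ALDOC spell CACGTG, an E-box that reads as ACGTG on both strands and also serves other factors.
FAM162A: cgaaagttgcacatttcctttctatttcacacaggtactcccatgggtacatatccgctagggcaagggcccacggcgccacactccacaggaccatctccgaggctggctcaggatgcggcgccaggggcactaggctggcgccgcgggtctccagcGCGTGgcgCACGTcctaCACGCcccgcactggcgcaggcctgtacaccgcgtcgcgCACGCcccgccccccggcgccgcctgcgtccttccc
ANGPTL4: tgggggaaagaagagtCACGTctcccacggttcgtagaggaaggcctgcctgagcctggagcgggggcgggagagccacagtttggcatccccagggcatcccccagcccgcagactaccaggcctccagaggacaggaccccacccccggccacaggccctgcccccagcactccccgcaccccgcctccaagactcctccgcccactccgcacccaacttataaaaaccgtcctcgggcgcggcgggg
PPP1R3C: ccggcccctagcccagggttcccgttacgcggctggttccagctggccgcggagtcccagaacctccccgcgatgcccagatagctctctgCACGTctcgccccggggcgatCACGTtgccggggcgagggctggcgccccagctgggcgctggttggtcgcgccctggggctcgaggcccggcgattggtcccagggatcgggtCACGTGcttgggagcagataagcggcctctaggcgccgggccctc
ALDOC: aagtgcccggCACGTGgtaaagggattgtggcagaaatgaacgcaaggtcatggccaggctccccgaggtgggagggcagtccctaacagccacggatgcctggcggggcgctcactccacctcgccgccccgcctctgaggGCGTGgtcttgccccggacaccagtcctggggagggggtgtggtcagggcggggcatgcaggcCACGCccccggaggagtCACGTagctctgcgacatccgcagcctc
GYS1: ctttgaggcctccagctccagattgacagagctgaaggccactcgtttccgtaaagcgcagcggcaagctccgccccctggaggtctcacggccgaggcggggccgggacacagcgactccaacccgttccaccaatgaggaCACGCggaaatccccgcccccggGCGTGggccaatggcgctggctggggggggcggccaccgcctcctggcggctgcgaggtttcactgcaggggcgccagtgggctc
ENO2: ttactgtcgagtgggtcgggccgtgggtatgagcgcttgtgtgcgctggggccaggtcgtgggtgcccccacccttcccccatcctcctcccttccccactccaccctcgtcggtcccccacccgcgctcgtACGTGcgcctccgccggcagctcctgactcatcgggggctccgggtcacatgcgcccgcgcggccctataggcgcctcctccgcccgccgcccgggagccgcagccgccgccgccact

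Over whole windows of 300 bases, 250 before and 50 after the start, 8199 of the 14232 genes had exactly 1 window. A further 3186 genes had several and were not used. Either core stood in 57.1% of all these windows, in 66.9% of those of genes called lower, in 71.1% of those that fell at least 2-fold, and in 63.3% of those called higher. ACGTG alone stood in 24.2% of all windows, 31.4% of those called lower, 38.6% of those that fell at least 2-fold and 31.6% of those called higher. The median GC content moved with these shares in the falls, at 63.7% for all windows, 66.7% for genes called lower and 66.8% for those lower by at least 2-fold, and was 63.7% for genes called higher. Its part in the shares was not tested. CACGTG stood in 9.1% of all windows, 10.7% of those called lower, 13.9% of those lower by at least 2-fold and 12.7% of those called higher. Of the 12 largest falls, 8 had a single window, and 3 of the 8 held a core. BEND5, ARLN, NRN1, TMEM45A and LINC01587 held neither in this window. A match in these letters is a description, and distal elements were not examined.

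Transcription factors listed downstream of HIF, repressors among them, fell at 4 of 6 measured members (66.7%, against 10.2% of all genes), with 0 higher. The median was -0.77, and -0.56 after quantile normalization with 3 falls. BHLHE41, a circadian repressor, measured 9.22, 8.86 and 8.64 with control siRNA and 7.062, 7.407 and 6.999 with HIF-1A siRNA (-1.75, SE 0.16, adjusted p = 2.24e-04), below its normoxic mean of 7.69. MXI1, an antagonist of MYC, went from 8.70, 8.55 and 8.50 to 7.50, 7.40 and 7.02 (-1.28, SE 0.12), and BHLHE40 from 11.15, 10.95 and 11.07 to 10.36, 10.07 and 9.74, which was 49.9% of its control level (SE 0.15 on the log2 scale). The 3 kept their calls without any single array. ETS1 did not: it was called at -0.53 (adjusted p = 0.0381) but not after quantile normalization (-0.25, adjusted p = 0.150), and it lost the call without any array except HIF-1A siRNA replicate 2 (highest adjusted p 0.164).

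Oxygen-dependent demethylases, enzymes that themselves need oxygen, fell at 9 of 17 measured members (52.9%, against 10.2% of all genes) with 0 higher (median -0.64). After quantile normalization 7 fell (median -0.40), and without HIF-1A siRNA replicate 3, or without control replicate 1, 5 fell. TET1, which oxidizes 5-methylcytosine, read 8.28, 7.33 and 7.33 with control siRNA and 5.82, 6.31 and 5.85 with HIF-1A siRNA (-1.65, SE 0.27, adjusted p = 0.00490). Control replicate 1 was a unit above its companions, yet the call was kept without it, and the HIF-1A siRNA arrays lay around the normoxic mean of 5.80. Its relatives TET2 (-0.50, 95% interval -0.88 to -0.13, adjusted p = 0.0797) and TET3 (-0.20, -0.49 to 0.09) were not called. KDM4C, a histone H3 lysine demethylase, went from 9.01, 8.57 and 8.62 to 7.29, 7.72 and 7.18 (-1.34, SE 0.17, adjusted p = 0.00128). KDM4B was called at -0.40 but stood at -0.14 after quantile normalization (adjusted p = 0.276), and KDM4A and KDM4D were called on neither scale, KDM4A turning from -0.19 to 0.09. JMJD6 fell by 1.08 and KDM2A by 0.85 on the log2 scale, with calls kept without any array. KDM3A, a well-known hypoxia-induced demethylase, went from 9.54, 9.20 and 9.50 to 9.02, 8.84 and 8.35 (-0.68, adjusted p = 0.0392), and its call was lost without control replicate 1 or 3 or HIF-1A siRNA replicate 3 (highest adjusted p 0.159). The groups of KDM3A did not overlap.

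**Figure D4:**
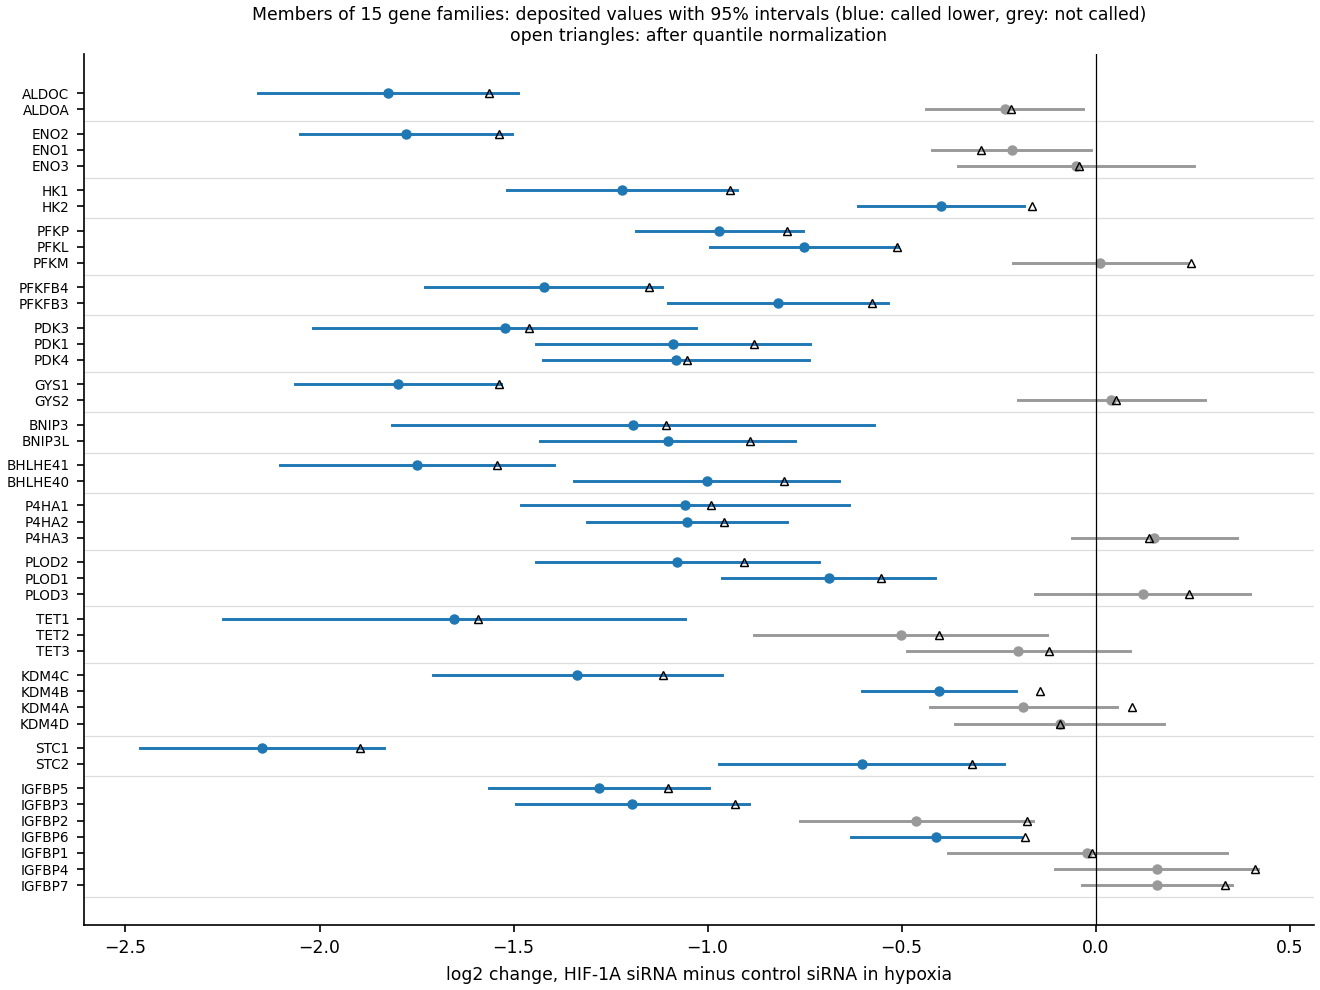
Log2 change with HIF-1A siRNA for the members of 15 gene families, on the deposited values with 95% intervals (points and lines, blue where called lower and grey where not called) and after quantile normalization (open triangles). ALDOC, ENO2, GYS1, TET1, KDM4C and STC1 lie at or below -1.34, while ALDOA, ENO1, GYS2, TET3, KDM4A and IGFBP1 lie between -0.23 and 0.04.

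Mitophagy and autophagy genes fell at 7 of 12 measured members (58.3%, against 10.2% of all genes) with 0 higher. The median was -0.75, and -0.53 after quantile normalization with 6 falls. Without HIF-1A siRNA replicate 3, or without control replicate 1, 5 fell. BNIP3 and BNIP3L, outer-membrane receptors that direct mitochondria to autophagy, changed alike in size and not in spread. BNIP3L went from 11.21, 11.08 and 11.03 to 10.35, 9.94 and 9.72 (-1.10, SE 0.15, adjusted p = 0.00173) and kept its call throughout. BNIP3 went from 12.66, 11.92 and 11.88 to 10.94, 11.37 and 10.57 (-1.19, SE 0.28, adjusted p = 0.0248), and lost it without control replicate 1 or HIF-1A siRNA replicate 1 or 3 (highest adjusted p 0.112). TP53INP1, which aids autophagosome formation, went from 8.11, 7.88 and 7.93 to 6.94, 7.26 and 6.43 (-1.09), and MAP1LC3B, the autophagosome marker LC3B, fell by 0.89. DDIT4, an inhibitor of mTORC1, fell by 0.87 yet stayed at 10.63, 10.99 and 10.58, above its normoxic mean of 9.56. Among 9 genes of mitochondrial adaptation to low oxygen only the protease LONP1 was called, at -0.71 (SE 0.09, adjusted p = 0.00161), and the list's median turned from -0.08 to 0.12 with quantile normalization.

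Among angiogenic ligands and receptors, 8 of 20 measured members fell (40%, against 10.2% of all genes) and 0 rose (median -0.35). After quantile normalization 8 fell and 1 rose (median -0.20). ANGPTL4, described above, led them. ADM, which encodes the vasodilator adrenomedullin, measured 10.54, 10.47 and 10.49 with control siRNA and 9.44, 9.41 and 9.27 with HIF-1A siRNA (-1.13, SE 0.10, adjusted p = 1.75e-04). NDRG1, a stress-response gene kept in this list, went from 12.43, 12.41 and 12.26 to 11.30, 11.38 and 11.07 (-1.12, SE 0.11), and EFNA3, an ephrin ligand, from 7.34, 7.27 and 7.11 to 6.18, 6.23 and 6.08 (-1.07, SE 0.11). These groups were tight and well apart. VEGFA, the main endothelial growth factor, went from 10.17, 10.07 and 10.25 to 9.46, 9.26 and 8.98 (-0.93, SE 0.13, adjusted p = 0.00173), which left 52.4% of the control level and more than the normoxic mean of 7.79. ADM, NDRG1, EFNA3 and VEGFA all ended above their normoxic means (8.74, 9.25, 5.87 and 7.79). ANGPT1, the ligand of the receptor TEK, differed from them in that its mean was 6.40 in normoxia and its HIF-1A siRNA arrays read 5.51, 5.75 and 5.20, below both control groups (-0.86, adjusted p = 0.00500). The calls of FLT1 (-0.78) and VEGFC (-0.42) were lost without 5 of the 6 single arrays (highest adjusted p 0.149 and 0.164). KDR, TEK, ANGPT2, PGF and NRP2 were not called.

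Stanniocalcins and insulin-like growth factor binding proteins fell at 6 of 10 measured members (60%, against 10.2% of all genes) with 0 higher (median -0.53). After quantile normalization 4 fell and 1 was higher (median -0.25). Beside STC1, STC2 was called at -0.60 and lost that call after quantile normalization (-0.32, adjusted p = 0.222). IGFBP5 went from 11.48, 11.44 and 11.59 to 10.51, 10.19 and 9.98 (-1.28, SE 0.13) and IGFBP3 from 10.11, 10.20 and 10.29 to 9.30, 8.90 and 8.82 (-1.19, SE 0.14). Both bind insulin-like growth factors outside the cell and kept their calls without any array. IGFBP6 stood at -0.41 as deposited and -0.18 after quantile normalization (adjusted p = 0.304), and IGFBP1, IGFBP2 and IGFBP4 were called on neither scale. IGFBP7 was called higher only after quantile normalization (0.33, adjusted p = 0.0313, against 0.16 as deposited).

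Collagen-modifying enzymes are given beside the collagens they act on. Of 11 hydroxylases and cross-linking enzymes, 5 fell (45.5%, against 10.2% of all genes as deposited) and 0 rose on either scale. The median was -0.29, and -0.16 after quantile normalization, and all 5 were called without HIF-1A siRNA replicate 3. PLOD2, a lysyl hydroxylase, went from 11.65, 11.35 and 11.38 to 10.55, 10.57 and 10.02 (-1.08, SE 0.17), ending below its normoxic mean of 10.79. The prolyl hydroxylase subunits P4HA1 and P4HA2 went from 12.23, 12.06 and 12.08 to 10.94, 11.57 and 10.69 (-1.06) and from 12.03, 11.95 and 11.96 to 11.14, 10.96 and 10.68 (-1.05). Both ended above their normoxic means of 10.06 and 10.52. PLOD1 fell by 0.69, whereas PLOD3 (0.12, 95% interval -0.16 to 0.40) and P4HA3 (0.15, -0.06 to 0.36) were not called. Of 17 collagen chains, 4 fell (23.5%, against 10.2% of all genes) and 1 rose (median -0.20). After quantile normalization 3 fell and 1 rose (median -0.04). The difference between both lists was not tested. All 5 of those calls, COL11A1, COL13A1, COL5A2, COL5A1 and COL16A1, were lost without HIF-1A siRNA replicate 3 and again without control replicate 1. The fibrillar chains COL1A1, COL1A2 and COL3A1 were not called, at -0.14, 0.01 and 0.07.

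The published tumour hypoxia classifier, whose members overlap these lists, had 11 of 13 measured members lower (84.6%, against 10.2% of all genes) and 0 higher. The median was -1.06, and -0.88 after quantile normalization with 10 lower. Without HIF-1A siRNA replicate 3, 8 were lower. The exceptions were ALDOA (-0.23) and LOX (0.21). Of 14 genes known for a HIF-2A preference 2 were lower (14.3%, near the 10.2% of all genes) and 0 higher, with a median of 0.03, and after quantile normalization 3 were lower and 0 higher (median 0.06). The 2 were FLT1 and LOXL2 (-0.53), and LOXL2 lost its call without control replicate 1 (adjusted p 0.0770).

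Single members led several lists that otherwise moved little. In the list of lipid droplets and lipoprotein receptors, 3 of 15 fell (20%, against 10.2% of all genes) and 1 rose. After quantile normalization 2 fell and 3 rose, and the median turned from -0.06 to 0.10. VLDLR, the very-low-density lipoprotein receptor, went from 10.71, 10.48 and 10.45 to 9.10, 9.15 and 8.53 (-1.62, SE 0.16, adjusted p = 2.69e-04), while LRP8, a close relative, went from 8.17, 7.96 and 8.03 to 9.23, 8.69 and 8.63 (0.80, SE 0.15, adjusted p = 0.00913). The 2 receptors moved in opposite directions on both scales. In iron handling, CP, which encodes the ferroxidase ceruloplasmin, went from 7.58, 7.11 and 7.61 to 5.96, 5.96 and 5.52 (-1.62, SE 0.19), and TFRC, the transferrin receptor, was called at -0.53 but not without control replicate 1 or 3 or HIF-1A siRNA replicate 3 (highest adjusted p 0.131). The iron list had 2 falls of 13 (15.4%, against 10.2% of all genes) and 0 rises. After quantile normalization it had 2 falls and 2 rises, and its median turned from -0.05 to 0.07. In the circadian clock 4 of 13 fell (30.8%, against 10.2% of all genes) and 0 rose (median -0.28). After quantile normalization 2 fell and 1 rose (median -0.14). BMAL1, the partner of CLOCK, kept its call without any single array: it went from 7.86, 7.38 and 7.31 to 6.44, 6.80 and 5.95 (-1.12, SE 0.21, adjusted p = 0.00964). BMAL2, PER2 and NPAS2 lost theirs without HIF-1A siRNA replicate 3, without control replicate 1 or 3, and without other arrays (highest adjusted p 0.141, 0.169 and 0.148).

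Inflammatory genes moved both ways. Of 19 measured members 5 fell (26.3%, against 10.2% of all genes) and 1 rose (5.26%, against 0.857%), with a median of -0.17. After quantile normalization 4 fell and 2 rose (median 0.00). PTGS2, which encodes cyclooxygenase 2, went from 9.54, 9.42 and 9.60 to 8.151, 7.996 and 7.519 (-1.63, SE 0.16, adjusted p = 2.97e-04), and the cytokine IL1A from 6.51, 5.92 and 6.39 to 4.75, 4.83 and 4.91 (-1.44, SE 0.19, adjusted p = 0.00142). IL1A thereby reached the level of normoxia (mean 4.90). The chemokine CCL2 ran the other way, from 9.31, 8.96 and 9.08 to 10.12, 10.70 and 9.91 (1.13, SE 0.19, adjusted p = 0.00628), and its normoxic mean was 10.68. CXCL8, IL6, NFKB1 and TNFAIP3 were not called. In the unfolded protein response list 7 of 20 fell (35%, against 10.2% of all genes) and 0 rose (median -0.28). After quantile normalization 6 fell (median -0.21), but 2 were called without HIF-1A siRNA replicate 3 and 1 without control replicate 1 as deposited. The member that kept its call was ERO1A, an endoplasmic reticulum oxidase, which went from 11.30, 10.94 and 10.83 to 9.17, 9.83 and 8.92 (-1.72, SE 0.21, adjusted p = 9.28e-04).

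Cholesterol and fatty acid synthesis had 3 falls, in SCD (-0.89), ACLY (-0.69) and STARD4 (-0.56), and 1 rise among 18 members (16.7% lower against 10.2% of all genes). After quantile normalization 2 fell and 2 rose, and the median turned from -0.14 to 0.07. The list averaged 8.55 in the control arrays, and 240 of the 1423 genes in the group around a level of 8.33 were called lower as deposited. SCD lost its call without control replicate 1 and STARD4 without control replicate 1 or 3 or HIF-1A siRNA replicate 3 (highest adjusted p 0.0716 and 0.115). FASN, the fatty acid synthase, was the rise, from 9.21, 9.08 and 9.03 to 9.83, 9.59 and 9.57 (0.56, SE 0.10, adjusted p = 0.00682), and it lay at 10.01 in normoxia. Mesenchymal genes and integrins had 9 falls of 26 (34.6%, against 10.2% of all genes) and 0 rises (median -0.22), or 8 and 0 after quantile normalization (median -0.19). On the deposited values 3 falls were left without HIF-1A siRNA replicate 3 and 2 without control replicate 1. The transcription factor SNAI2 went from 10.34, 10.37 and 10.30 to 9.68, 9.60 and 9.17 (-0.85, SE 0.13) and the adhesion molecule L1CAM from 7.38, 7.06 and 7.20 to 6.63, 6.40 and 6.30 (-0.77, SE 0.11). These 2 kept their calls throughout. Fibronectin, FN1, went from 12.47, 12.21 and 12.29 to 11.87, 11.65 and 11.49 (-0.65, adjusted p = 0.00964) and lost it without control replicate 1 (adjusted p 0.0523).

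**Figure D5:**
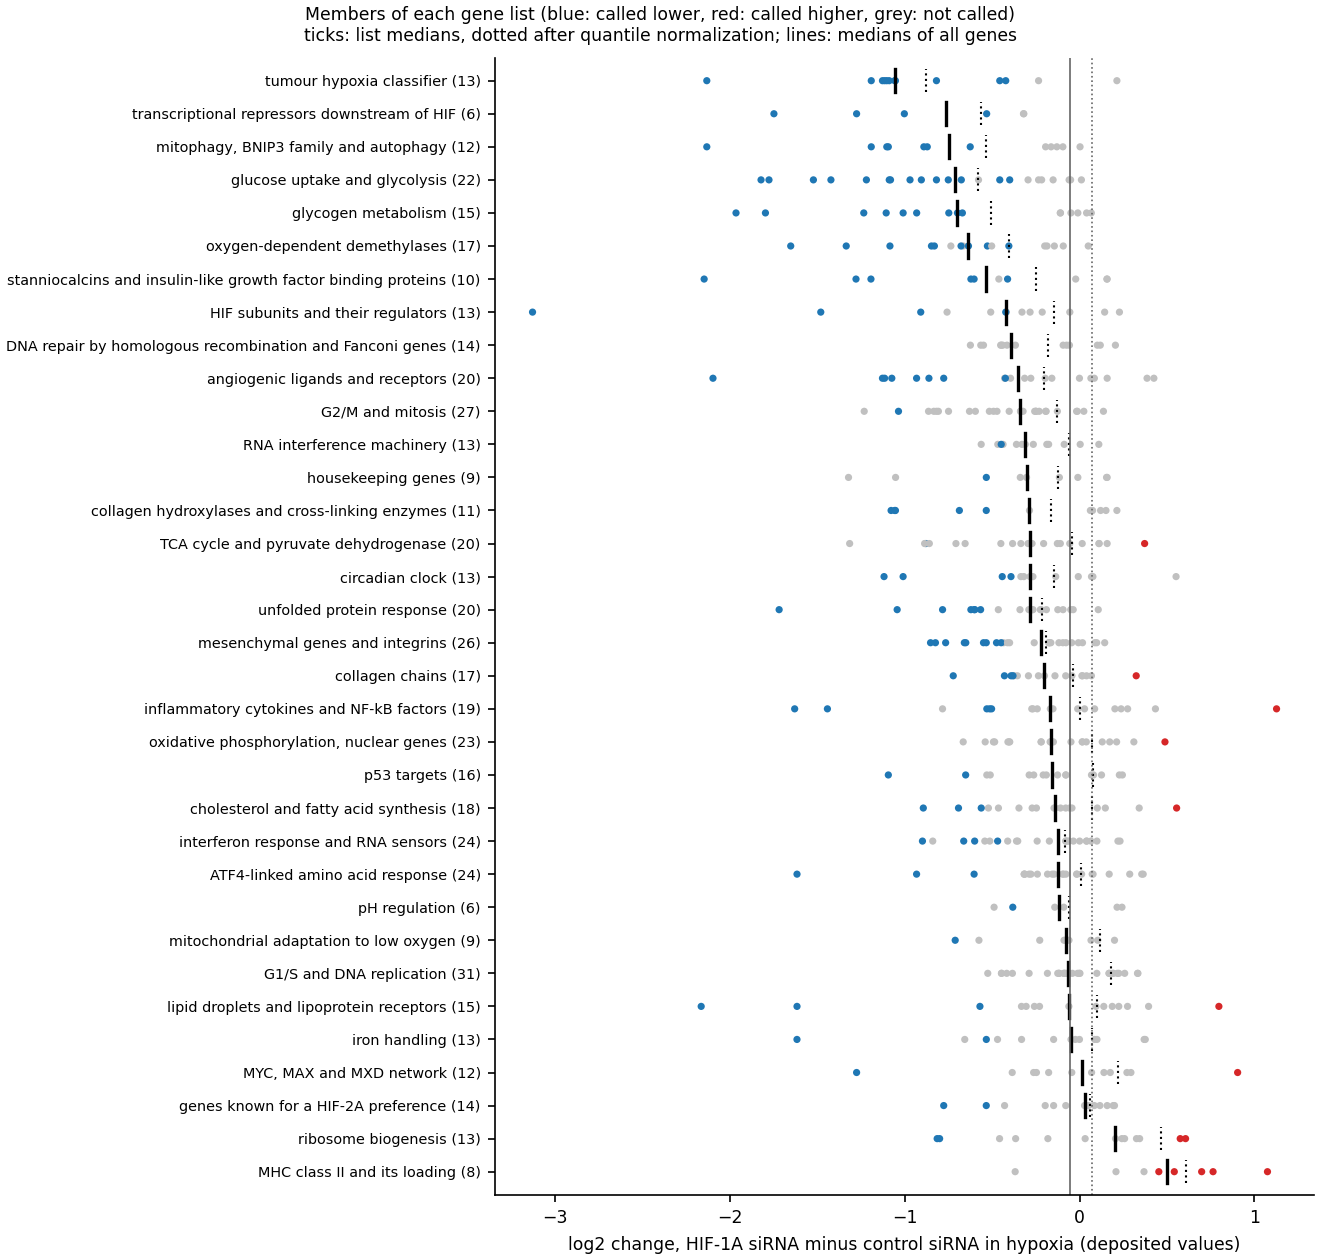
Log2 change of each measured member of the 34 gene lists on the deposited values (blue called lower, red called higher, grey not called), with the number measured in brackets. Black ticks are list medians, dotted after quantile normalization, and the vertical lines are the medians of all genes at -0.05 and, dotted, 0.07. The hypoxia classifier (-1.06), the list labelled as repressors downstream of HIF (-0.77), mitophagy (-0.75), glycolysis (-0.71) and glycogen metabolism (-0.70) lie farthest below, and MHC class II (0.50) farthest above.

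Rises were fewer and smaller than falls on the deposited values, with 39 genes called higher by at least 1.5-fold against 1055 lower. Of the 12 largest, 5 kept their calls without any single array: TAF9B, CCL2, HLA-DMB, S100B and ENC1. These fits still draw on the spread of the other groups. When limma was fitted to only the 6 arrays compared, 3 genes in all were called higher. In that fit TAF9B was called (adjusted p = 0.0372), and CCL2 (0.0730) and HLA-DMB (0.0846) were not. TAF9B, a TFIID subunit, measured 7.40, 7.73 and 7.24 with control siRNA and 8.67, 8.67 and 8.42 with HIF-1A siRNA (1.13, SE 0.14, adjusted p = 0.00114), below all normoxic arrays (mean 9.31). S100B, a calcium-binding protein of astroglia, went from 10.16, 10.12 and 10.11 to 10.99, 11.18 and 10.78 (0.85, SE 0.13, adjusted p = 0.00290), and ENC1, an actin-associated protein gene, from 8.31, 8.19 and 8.29 to values between 8.95 and 9.40 (0.85, SE 0.13). Both groups were clear of each other, and the HIF-1A siRNA arrays overlapped the normoxic ones (means 10.76 and 9.32). The MYC network had 1 fall, MXI1, and 1 rise among 12 members (median 0.01), and 1 fall and 3 rises after quantile normalization (median 0.22). MYCN, a relative of MYC, rose from 7.47, 7.92 and 7.93 to 8.44, 8.68 and 8.91 (0.90, SE 0.19, adjusted p = 0.0161). With the mean of all its probe sets the rise was 0.40 (adjusted p = 0.0400). All 3 HIF-1A siRNA arrays lay above the normoxic ones (mean 7.82), but the call was lost without control replicate 1 or HIF-1A siRNA replicate 3 (highest adjusted p 0.0788). KRTAP15-1, KRTAP10-7, MS4A1, NPBWR2, BHLHA15 and TIGD3 rose by 0.83 to 1.12 and lost their calls without 2 to 5 single arrays, which always included HIF-1A siRNA replicate 3. In the control arrays KRTAP15-1, NPBWR2 and TIGD3 averaged under the lower quartile of all 12 arrays, so the size of their rises is uncertain.

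The MHC class II list was the only list of the 34 with more than 2 rises on the deposited values: 5 of 8 measured members rose (62.5%, against 0.857% of all genes), 0 fell (1 at an unadjusted p under 0.05 by limma), and the median was 0.50 and 0.61 after quantile normalization, where 6 rose. The lists were chosen with earlier results of these data known, so this share is a description. Class II molecules present peptides to T cells. CIITA, their master transactivator, measured 7.26, 7.20 and 7.36 with control siRNA and 8.11, 8.06 and 7.95 with HIF-1A siRNA (0.76, SE 0.10, adjusted p = 0.00126), with a normoxic mean of 7.66. HLA-DMB, which loads peptides, went from 7.70, 7.54 and 7.93 to 9.23, 8.72 and 8.45 (1.08, SE 0.17, adjusted p = 0.00449), and HLA-DOA from 6.68, 6.91 and 6.99 to 7.75, 7.35 and 7.57 (0.70, SE 0.12). The groups of all 3 were apart and their calls were kept without any array. HLA-DRA rose by 0.54 and HLA-DPB1 by 0.45, with calls lost without control replicate 3 (adjusted p = 0.0545) and without 5 of 6 arrays (highest adjusted p 0.169) in turn. CD74 (0.37) and HLA-DPA1 (0.21) were not called. Against HIF-2A siRNA, CIITA and HLA-DOA were higher (0.44 and 0.47, adjusted p = 0.0222 and 0.0391), and HLA-DMB (0.52, adjusted p = 0.0797), HLA-DRA (0.13) and HLA-DPB1 (0.07) were not called.

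Most growth and energy lists had few calls on the deposited values, and some counts depended on the scale. Of 31 genes of G1/S and DNA replication 0 were called by limma on the deposited values (median -0.06, with 1 lower and 2 higher at an unadjusted p under 0.05). After quantile normalization 7 of the 31 rose (median 0.18), against 5.1% of all genes. Of 13 genes of ribosome biogenesis 2 fell and 2 rose (median 0.21), each 15.4%, against 10.2% lower and 0.857% higher of all genes. After quantile normalization 2 fell and 7 rose (median 0.47), against 7.9% and 5.1% of all genes. RRS1, a ribosome assembly factor, rose by 0.58 with its call kept throughout, while the nucleolar methyltransferase FBL fell by 0.80. G2/M genes had 1 fall among 27, CCNB2, and 0 rises (median -0.34), against 0 falls and 1 rise after quantile normalization (median -0.13). The call of CCNB2 was lost without any array except HIF-1A siRNA replicate 2 (highest adjusted p 0.185). DNA repair genes had 0 calls among 14 on either scale (median -0.39, and -0.18 after quantile normalization). Without HIF-1A siRNA replicate 2, 9 G2/M and 7 repair genes fell. At an unadjusted p under 0.05 by limma, 13 G2/M and 3 repair genes were lower and 0 higher. In the tricarboxylic acid cycle list DLST fell and IDH1 rose among 20 members on either scale (median -0.28, and -0.04 after quantile normalization). The call of DLST was lost without control replicate 1 or HIF-1A siRNA replicate 1 or 3, and that of IDH1 without any array except HIF-1A siRNA replicate 2 (highest adjusted p 0.127 and 0.103). Of 23 nuclear genes of oxidative phosphorylation 0 fell (4 at an unadjusted p under 0.05 by limma) and 1 rose, CYC1, whose call was lost without any control array or HIF-1A siRNA replicate 1 (highest adjusted p 0.188). After quantile normalization 0 fell and 2 rose, and the median turned from -0.16 to 0.07. The list of ATF4-linked genes had 3 falls of 24 (12.5%, near the 10.2% of all genes), in VLDLR, VEGFA and STC2, which stand in other lists as well, and 0 rises. After quantile normalization it had 2 falls and 2 rises, and its median turned from -0.12 to 0.01. The p53 list had 2 falls of 16 (12.5%), TP53INP1 and SESN1, and 0 rises, against 2 falls and 4 rises after quantile normalization, where the median turned from -0.16 to 0.08. SESN1 lost its call without control replicate 1 or HIF-1A siRNA replicate 3 (highest adjusted p 0.0763). Interferon genes had 4 falls of 24 (16.7%, against 10.2% of all genes), in IFIT2, IFIT3, OAS3 and IRF9, with no call kept without control replicate 1. They had 3 falls and 1 rise after quantile normalization (medians -0.13 and -0.08). RNA interference genes had 1 fall of 13 (7.69%), TNRC6C, and 0 calls after quantile normalization (medians -0.31 and -0.06). The call of TNRC6C was lost without any array except HIF-1A siRNA replicate 2 (highest adjusted p 0.178). In pH regulation 1 of 6 fell, CA12, whose call was lost without control replicate 1 or 3 or HIF-1A siRNA replicate 1 or 3 (highest adjusted p 0.192), and after quantile normalization 1 fell and 1 rose (medians -0.12 and -0.06). Of 9 housekeeping genes TFRC alone was called, on either scale (medians -0.30 and -0.12). The changes of the list ran from -1.32 to 0.16 as deposited, so its largest fall was not called. The housekeeping genes YWHAZ and HPRT1 were spread widely with HIF-1A siRNA, at 7.12, 8.79 and 7.10 and at 8.05, 9.24 and 7.94, where replicate 2 stood above the others (adjusted p = 0.0582 and 0.0569).

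The labelled cell type was checked against markers. Of 15 measured glioblastoma and astroglial markers, 7 had control means over the upper quartile of all 12 arrays, among them VIM, FABP7, TNC, NES and CD44. So did 3050 of all 14232 genes, 3 of 6 oligodendrocyte, 2 of 8 epithelial and 1 of 9 endothelial markers. For neurons, microglia and fibroblasts 0 markers did. The share alone thus does not single out the labelled cell type. AQP4, SLC1A2 and SLC1A3, markers of mature astrocytes, averaged 3.26, 3.67 and 4.34 in the control arrays, under all lower quartiles. In the RNA of a whole culture, fewer cells of a type and less RNA per cell cannot be told apart. Between the siRNAs, S100B was the only glioblastoma and astroglial marker called on the deposited values. On these values 0 markers of neurons, oligodendrocytes, microglia, endothelium or epithelium were called by limma (0 or 1 lower and 1 or 2 higher per list at an unadjusted p under 0.05). After quantile normalization 1 glioblastoma and astroglial marker was lower and 4 were higher. Microglia and endothelium then had 1 higher each, and neurons, oligodendrocytes and epithelium 0 calls. Of 8 fibroblast markers FAP and DCN fell (-0.94 and -0.65), both lost without HIF-1A siRNA replicate 3 (adjusted p = 0.0801 and 0.0583) or control replicate 1.

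Set against HIF-2A siRNA in the same hypoxia, HIF-1A siRNA gave 1214 lower genes (8.53%) and 128 higher (0.899%), or 981 and 799 after quantile normalization. This contrast shares the HIF-1A siRNA arrays with the one above, and the values are given side by side. For ALDOC it was -1.85 beside -1.82 against control siRNA, for GYS1 -1.72 beside -1.80, for STC1 -1.91 beside -2.15 and for ANGPTL4 -1.60 beside -2.10. Larger gaps were seen for PFKFB3 at -0.31 (adjusted p = 0.134) beside -0.82, for PDK4 at -0.57 beside -1.08, for IGFBP3 at -0.64 beside -1.19 and for SNAI2 at -0.34 (adjusted p = 0.103) beside -0.85. In each of these last 4, the HIF-2A siRNA mean (9.73, 6.48, 9.64 and 9.82) lay between the control and the HIF-1A siRNA means. Among the rises, TAF9B was 1.18 higher than with HIF-2A siRNA and ENC1 0.82 higher, beside 1.13 and 0.85, whereas BHLHA15 was 0.16 higher (adjusted p = 0.588) beside 0.85.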

How the data were processed

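RNA from 12 LN229 samples, 3 in each of 4 groups, was measured on Affymetrix arrays. The deposited values are log2 expression per probe set; the submitters' processing notes name Partek and hg18, and how probes were summarized and normalized is not given in the sources used here. Base 2 was inferred from the range. Of 22011 probe sets, 14432 carried 1 symbol, 2408 several and 5171 none. Where a gene had several such probe sets (197 genes), the 1 with the highest mean over 12 arrays was kept, which left 14232 genes. No measure of background was used, so changes at low levels have an uncertain size, and the number of arrays limits the precision.

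limma 3.58.1 (R 4.3.3; the package data.table, version 1.17.8) was fitted to all 4 groups, which share one estimate of the spread, without a replicate block, with Benjamini-Hochberg adjustment over all genes and a threshold of 0.05. The fit was tested on simulated data. Quantile normalization, cyclic loess, median centring, the 6 arrays alone, a replicate block, array weights, an intensity trend, a filter on low values, the mean of probe sets and leaving out each array were alternatives. Figures used matplotlib 3.10.9 (Python 3.11.15).

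The members and lists were chosen with earlier results of these data known. Genes named were those of the HIF list, the 12 largest falls and 12 largest rises called on both scales without overlap of the arrays, and up to 4 called members of each list by size with their paralogs. Other genes named were chosen after their values were seen. Promoter windows came from a RefSeq table (GRCh38.p14) and were matched by Entrez gene ID, 8199 genes having exactly 1. Of the genes, 2847 had none in that table. No source used here gives the siRNA sequences.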

Additional observations from a re-analysis of the deposited data

How the results depend on the processing

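The counts of called genes depended on the scaling and on single arrays. Of the 1451 falls, 360 kept their calls in all 6 fits that left out an array, as did 18 of the 122 rises. The 12 largest falls were chosen among genes called lower on both scales, so their calls after quantile normalization were fixed by that rule. Genes called lower numbered 1451 as deposited, 134 when only the 6 arrays compared were fitted, 735 with array weights and 366 to 2450 when 1 array was left out. Genes called higher numbered 122 as deposited, 726 after quantile normalization, 545 after cyclic loess, 509 with arrays centred on the median, 3 with only the 6 arrays, 56 with array weights, 39 with a fold of at least 1.5 and 24 to 198 with 1 array left out. Rises made up 31.5% of calls after cyclic loess and 28.6% after median centring. After quantile normalization the 1124 falls became 655 and the 726 rises 166 with a fold of at least 1.5, and leaving out 1 array gave 423 to 2007 falls and 148 to 1667 rises. Against HIF-2A siRNA the 128 rises became 799 after quantile normalization. The fall of HIF1A ranged from -2.80 to -3.49 and that of EPAS1 from -1.22 to -1.66 (log2) over the alternatives, and both stayed called.

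Replicate numbers are shared between groups. Deviations of same-numbered arrays of the 2 groups compared had correlations of 0.063, -0.32 and 0.15. Arrays of these groups with different numbers ran from -0.553 to 0.512. Same-numbered normoxic and hypoxic control arrays gave 0.466, 0.368 and 0.098, and control and HIF-2A siRNA arrays in hypoxia 0.063, 0.597 and -0.159. Whether a number marks a shared culture or batch was not tested and cannot be told from these values. With the replicate block 1172 genes were lower and 94 higher, or 790 and 413 after quantile normalization, and against HIF-2A siRNA 1016 were lower and 85 higher. The cause of these shifts was not tested.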
